A study of Mus musculus with 2 samples.

Results

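The genes described are Pla2g4c and 6 other phospholipase A2 genes (Pla2g4a, Pla2g6, Pla2g15, Pla2g12a, Pla2g12b and Pla2g16), followed across the cell classes of the mouse ileal epithelium in wild type (WT) mice and in mice that lack TNFAIP8, also called TIPE0. They were chosen by symbol, as 7 of the 27998 genes in the count matrices, and Pla2g4c was included because earlier results of these data showed it to differ between the genotypes. Both groups were C57BL/6 mice of 8 weeks: WT mice, and mice of genotype TNFAIP8-/- (here Tipe0-/-). Epithelial cells of the ileum were put through droplet-based single-cell sequencing of the 3' ends of messages (10x Chromium, v2 chemistry), and the study pooled 3 mice per genotype before sequencing. There was therefore 1 library per genotype. No difference between the libraries could be tested, the interval given with each value covers counting error only, and genotype cannot be told apart from the pool of mice or the library.

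Phospholipases A2 cut the fatty acid from the middle position of membrane glycerophospholipids and leave a free fatty acid and a lysophospholipid. When the fatty acid is arachidonate it feeds the synthesis of prostaglandins and leukotrienes, and the lysophospholipid can act as a signal or be reacylated. The family holds cytosolic enzymes, calcium-independent enzymes, a lysosomal enzyme, small secreted enzymes and enzymes of the acyltransferase-like PLAAT group, of which Pla2g16 (also called Plaat3) is one. In the small intestine such enzymes also take part in the uptake of dietary phospholipid and in the packaging of fat into lipoproteins.

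Pla2g4c encodes a cytosolic phospholipase A2 that, unlike Pla2g4a, needs no calcium to bind membranes. The gene (ENSMUSG00000033847) lies on the + strand at chr7:13324655-13360672 in build mm10. RefSeq (GRCm38.p6) gave 2 windows for it, before starts annotated at positions 13325667 and 13329322. Both lie inside the gene as GENCODE gives it, which starts at 13324655, and the bases before that position were not searched. The 38 bases before the first start and the 4 before the second fall in annotated exons. The part of each window that lies outside annotated exons is shown because Pla2g4c is the member that differed most between the libraries. Reads from 3' ends do not tell which start was used.

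Pla2g4c start 1, chr7:13325417-13325628, + strand: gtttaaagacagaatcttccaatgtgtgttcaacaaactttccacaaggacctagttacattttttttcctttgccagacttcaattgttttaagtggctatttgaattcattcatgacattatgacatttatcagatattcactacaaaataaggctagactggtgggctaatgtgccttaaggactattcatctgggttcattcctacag
Pla2g4c start 2, chr7:13329072-13329317, + strand: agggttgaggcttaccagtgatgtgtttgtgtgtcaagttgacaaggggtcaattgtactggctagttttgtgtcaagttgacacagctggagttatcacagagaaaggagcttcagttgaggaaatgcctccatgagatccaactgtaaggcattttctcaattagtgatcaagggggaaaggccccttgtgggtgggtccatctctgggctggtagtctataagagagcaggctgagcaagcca

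The 250 bases before each start were searched on both strands for 6 motifs, and matches would have been put in capitals. Neither window held the interferon-stimulated response element, read as GAAA and GAAA with 2 bases of any kind between, which 2.98% of the 32851 RefSeq windows of the same length held. Neither held the gamma-activated site TTCNNNGAA (7.02% of windows), the HNF4 core CAAAGTC (3.84%), the TCF/LEF core CTTTGAT (3.21%), the CDX2 core TTTATGG (2.43%) or the TATA box TATAAA (12.4%). These letters are absent from these windows, which says nothing of factors that bind elsewhere or to other letters.

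The WT library held 3402 cells and 38127808 unique molecular identifiers (UMIs, each counting 1 captured message), and the Tipe0-/- library held 2006 cells and 23897126 UMIs. Median depth was 7760 UMIs per cell in WT and 7307.5 in Tipe0-/-, and 9 barcodes occurred in both libraries. Tnfaip8, the deleted gene, had 372 UMIs in WT (9.76 CPM, counts scaled to a common library total) and 57 in Tipe0-/- (2.39 CPM), a log2 ratio of -2.02 (95% interval -2.46 to -1.63). It was -1.94 without lymphocyte-like cells, of which there were 93 in WT and 18 in Tipe0-/-. Which exons the deletion removes relative to the counted 3' end is not given in the sources used here. The general epithelial marker Epcam was at 1334 CPM in WT and 1513 CPM in Tipe0-/-, and the leukocyte marker Ptprc at 11.8 and 3.35 CPM. Clusters of cells were named from marker genes as stem-like, cycling-like, enterocyte-like, goblet-like, Paneth-like, tuft-like, enteroendocrine-like and lymphocyte-like, and 1 cluster led by Lrg1, Akr1c19 and Gsdmc3 stayed unnamed (cluster 10). Clustering was also run with no gene kept out, so that the members, the listed genes and the genes of the genotype comparison all entered. Part of the enterocyte-like cells then split by library, with 410 WT and 15 Tipe0-/- cells in one cluster and 3 and 190 in another. Other enterocyte-like clusters of that setting stayed mixed, with 299 WT and 136 Tipe0-/- cells and with 115 and 56. The labels call the cells enterocytes, and the enterocyte-like class made up 26.5% of the WT library and 22.7% of the other.

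Pla2g4c was the most abundant of the 7 genes in WT, and in Tipe0-/- it stood below Pla2g16, Pla2g4a, Pla2g12a and Pla2g12b. In WT 7336 UMIs were counted, a level of 192 CPM (95% interval 188 to 197). In Tipe0-/- 327 UMIs were counted, a level of 13.7 CPM (12.2 to 15.3). The intervals lay far apart, and the log2 ratio of Tipe0-/- over WT was -3.81 (-3.98 to -3.65), or 14.04-fold lower in Tipe0-/- (12.6 to 15.8). The median ratio was 0.15 over the 11665 genes that reached 50 UMIs when the libraries were summed, and relative to it Pla2g4c stood at -3.97. Its ratio ranked 5 from the lowest among those genes. Pla2g4c was the only 1 of the 7 members past 2-fold lower, where 2.43% of all genes were, and no member was past 2-fold higher, where 1.53% were. Since Pla2g4c was chosen for this difference, the count is a description and nothing is read from it.

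Counts of UMIs are not scaled by gene length, because each captured message gives 1 count at its 3' end, and levels in CPM are set side by side between genes on that basis. Whether the 3' ends of the genes were captured equally well was not examined, so shares of the members are shares of counts. Pla2g4c made up 52.1% of the 14094 UMIs of the 7 members in WT and 8.79% of the 3721 in Tipe0-/-. Pla2g16 made up 29.5% in WT and 48.2% in Tipe0-/-. The share of Pla2g4c was thus lower in Tipe0-/- and the shares of the 6 other members were higher, Pla2g4a for example at 5.55% in WT and 14.2% in Tipe0-/-. A lower count of Pla2g4c by itself raises the other shares, and the level of Pla2g16 was lower in Tipe0-/-.

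More cells carried Pla2g4c in WT, and each carried more of it. After every cell was thinned to 3000 UMIs, at least 1 Pla2g4c UMI was found in 27.5% of cells in WT (26.05% to 29.1%, exact Clopper-Pearson interval) and in 2.79% in Tipe0-/- (2.12% to 3.61%). Without thinning the shares were 42.9% and 7.43%. Carriers held a mean of 2.68 thinned UMIs in WT and 1.66 in Tipe0-/-. The remaining message in Tipe0-/- sat in few cells: the 10 cells with the most Pla2g4c UMIs held 38.8% of the library's Pla2g4c count, against 6.62% in WT, and up to 26 UMIs were found in 1 Tipe0-/- cell against 67 in 1 WT cell. Without the 10 richest cells of each library the log2 ratio was -4.42. Leaving out the barcodes found in both libraries gave -3.82.

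By cell class, Pla2g4c was highest in enterocyte-like cells, with tuft-like cells and cluster 10 next. In WT the enterocyte-like class had 577 CPM (561 to 595, 903 cells), the tuft-like class 241 CPM (221 to 263, 158 cells) and cluster 10 209 CPM (185 to 236, 159 cells). Goblet-like cells followed at 122 CPM (115 to 129) and cycling-like cells at 102 CPM (95.3 to 110). Enteroendocrine-like (44.0 CPM, 26.5 to 68.8), lymphocyte-like (28.6 CPM, 15.6 to 47.9) and stem-like cells (26.9 CPM, 20.9 to 34.1) came next, and Paneth-like cells were lowest at 8.38 CPM (6.33 to 10.9). Tuft-like cells and cluster 10 did not differ beyond their counting intervals, nor did enteroendocrine-like, lymphocyte-like and stem-like cells. Within the goblet-like class, cluster 9 was at 259 CPM (239 to 280), an interval that overlapped that of tuft-like cells. Together the enterocyte-like cells held 61.3% of the Pla2g4c count of the WT library.

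In Tipe0-/- the classes stood in nearly the same order, at levels several times lower. Enterocyte-like cells were again highest, at 39.4 CPM (33.3 to 46.3, 456 cells), followed by cluster 10 at 26.5 CPM (14.1 to 45.4) and tuft-like cells at 26.3 CPM (17.5 to 37.95). The intervals of the last pair overlapped with each other and with that of the enterocyte-like class. Goblet-like cells had 10.9 CPM (8.61 to 13.6), cycling-like cells 9.82 CPM (7.24 to 13.01), stem-like cells 1.40 CPM on 3 UMIs and Paneth-like cells 1.33 CPM on 5 UMIs. Some of these counts rest on few cells: before thinning, 9.80% of the 51 tuft-like and 0.714% of the 140 Paneth-like cells held a Pla2g4c UMI. The intervals do not cover the spread between cells, so this order is a description. In the 18 lymphocyte-like cells no Pla2g4c UMI was counted, and 3 counts there would have been 30.9 CPM, so no difference from WT was detectable at this depth; of the genes counted in that class 5.05% were past 2-fold lower.

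**Figure D1:**
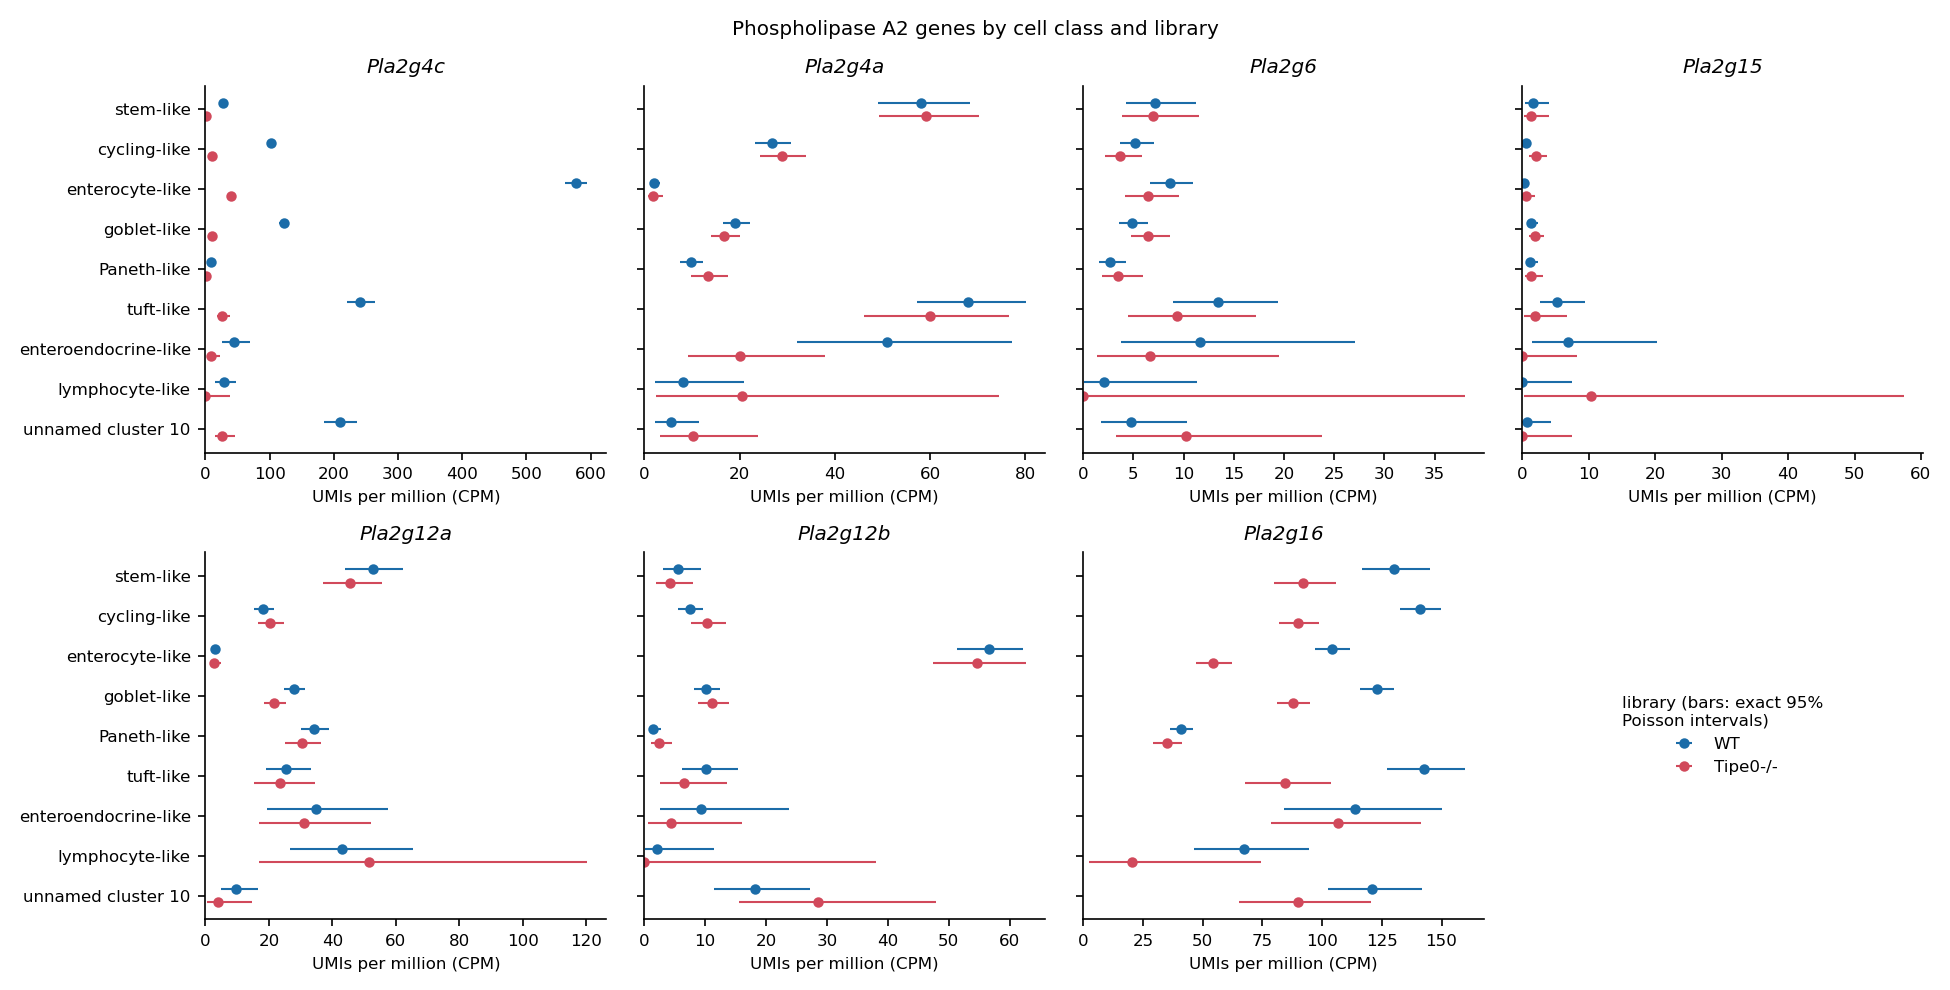
Levels of the 7 phospholipase A2 genes in CPM (linear axes from 0, scaled for each gene) by cell class, with WT in blue and Tipe0-/- in red; points are summed counts of 1 library and bars are exact 95% Poisson intervals. Pla2g4c is highest in enterocyte-like cells of both libraries, at 577 CPM in WT and 39.4 CPM in Tipe0-/-, while Pla2g4a and Pla2g12a are lowest there.

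The level of Pla2g4c was lower in Tipe0-/- outside the enterocyte-like class as well. The log2 ratio of Tipe0-/- over WT was -3.87 (-4.12 to -3.64) in enterocyte-like cells, where 1.52% of the genes were past 2-fold lower. It was -3.37 (-3.84 to -2.96) in cycling-like cells, where 0.948% of genes were so. Goblet-like cells gave -3.48 (-3.83 to -3.16) against a background of 1.4%, and tuft-like cells -3.18 (-3.80 to -2.65) against 2.57%. Cluster 10 gave -2.93 (-3.91 to -2.18), with 1.4% of its genes past 2-fold lower. On fewer counts, stem-like cells gave -4.06 (-6.58 to -2.66), Paneth-like cells -2.53 (-4.33 to -1.35) and enteroendocrine-like cells -2.18 (-4.33 to -0.72), with 1.08%, 0.501% and 1.47% of genes past 2-fold lower. In the Paneth-like class the median ratio of all genes was itself 0.50. The WT levels of cycling-like, goblet-like and tuft-like cells and of cluster 10 lay above the interval of the lymphocyte-like class, which is taken to lack the gene. Those of stem-like, Paneth-like and enteroendocrine-like cells did not, so their ratios are not read as a difference of those classes. Paneth-like cells are also taken to lack the gene, with a WT interval of 6.33 to 10.9 CPM. Stem-like (20.9 to 34.1 CPM) and enteroendocrine-like cells (26.5 to 68.8 CPM) lay above that interval, so their reading depends on the background class used. The share of WT cells with a Pla2g4c UMI after thinning was 20.3% in cycling-like, 19.3% in goblet-like and 27.2% in tuft-like cells and 34.6% in cluster 10, beside 8.60% in lymphocyte-like, 7.33% in stem-like, 10.8% in enteroendocrine-like and 3.20% in Paneth-like cells. All intervals of the ratio overlapped one another, so the size of the difference could not be ordered between classes.

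**Figure D2:**
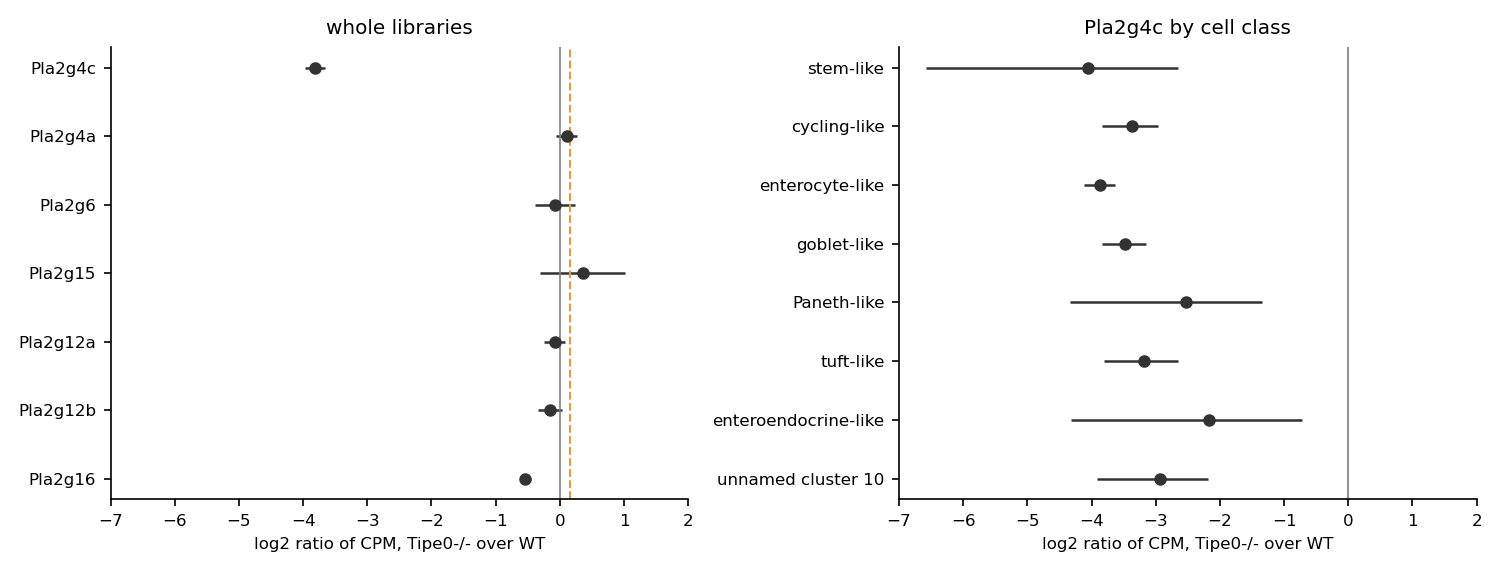
Log2 ratio of CPM, Tipe0-/- over WT, with 95% exact binomial intervals for the 7 genes over whole libraries (left; the dashed line is the median of all genes, 0.15) and for Pla2g4c by cell class (right; the lymphocyte-like class, with 0 UMIs in Tipe0-/-, is left out). Pla2g4c stands at -3.81, Pla2g16 at -0.54 and the other 5 genes near 0, and every class shown has Pla2g4c below 0.

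Among the enterocyte-like clusters of WT, Pla2g4c was highest in the one with the most enterocyte markers. Cluster 1, led by Apoa1, Slc6a19 and Tmigd1 (a lipoprotein, an amino acid transporter and a brush border protein), had 830 CPM in WT and 30.8 CPM in Tipe0-/-. Cluster 5, which is led by Slc40a1, Apol10a and Ms4a18 and in which 4 of 17 enterocyte markers were found, had 375 CPM in WT and 49.2 CPM in Tipe0-/-. Cluster 8, led by Arg2, Ms4a18 and Fabp6, had 355 and 41.4 CPM. The log2 ratio was -4.74 (-5.17 to -4.36) in cluster 1, -2.92 (-3.31 to -2.57) in cluster 5 and -3.07 (-3.73 to -2.53) in cluster 8. The interval of cluster 1 lay below those of clusters 5 and 8, which overlapped. The cluster with the highest Pla2g4c level in WT also had the lowest ratio of these 3. The WT level is part of that ratio, so the order is not a separate result. Tipe0-/- counts sat in few cells, in cluster 8 in 2 of 68 after thinning, and the intervals do not cover the spread between cells.

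The goblet-like class was made of 3 clusters with unlike Pla2g4c levels. Cluster 9, in which 8 of 9 goblet markers but also 5 enterocyte markers were found, had 259 CPM in WT and 43.0 CPM in Tipe0-/-. Cluster 0, led by Creb3l1, Ccl9 and Spdef, had 78.3 and 3.61 CPM. In it 9 of 9 goblet markers but also 13 cycling markers were found. Cluster 7, led by Zg16, Fcgbp and Clca1, had 60.9 and 5.77 CPM. Cluster 9 thus held 620 of the 1154 goblet-like Pla2g4c UMIs of WT and 56 of the 79 of Tipe0-/-. Without cluster 9 the log2 ratio over the whole libraries was -3.97.

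Per cell, a Pla2g4c UMI remained after thinning in 505 of the 903 enterocyte-like cells of WT (55.9%, 52.6% to 59.2%) and in 28 of the 456 of Tipe0-/- (6.14%, 4.12% to 8.75%). In WT 19.0% of these cells had 4 or more thinned UMIs, up to 19 in 1 cell, whereas in Tipe0-/- 0.658% had as many. The median depth before thinning was 6432 UMIs in WT and 5725 in Tipe0-/-. Lymphocyte-like and Paneth-like cells, taken to lack the gene, served as background; free RNA was not estimated from empty droplets. In WT 8.60% of lymphocyte-like cells (median 4456 UMIs) and 3.20% of Paneth-like cells (median 20967 UMIs) had a Pla2g4c UMI after thinning, and in Tipe0-/- 0 of 18 and 0 of 140 did, which allows shares of up to 16.7% and 2.14% when 3 cells are taken as the most that a count of 0 allows. The share in Tipe0-/- enterocyte-like cells was above the limit for Paneth-like cells but under that for lymphocyte-like cells. Those in goblet-like cells (1.60%) and in stem-like cells (0 of 216, which allows up to 1.39% on the same count of 3) were under both limits. Paneth-like cells of Tipe0-/- had a median of 25782 UMIs before thinning, against 5725 in enterocyte-like cells. Free RNA may weigh unequally at such unlike depths, so no share in Tipe0-/- is read as above background.

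**Figure D3:**
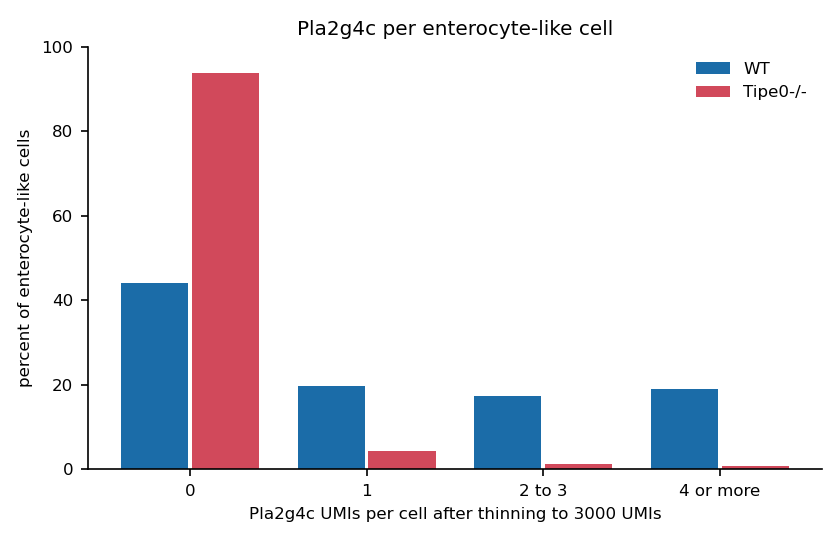
Percent of enterocyte-like cells (vertical axis, bars from 0) by the number of Pla2g4c UMIs per cell after thinning to 3000 UMIs, for 903 WT cells in blue and 456 Tipe0-/- cells in red. In WT 44.1% of cells hold none and 19.0% hold 4 or more, and in Tipe0-/- 93.9% hold none and 0.658% hold 4 or more.

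Levels of 4 enterocyte genes in the same classes are given for comparison. The WT lymphocyte-like level of Pla2g4c was 4.95% of its enterocyte-like level, where Apoa1 was at 1.48%, Fabp6 at 1.44%, Sis at 0.444% and Rbp2 at 2.102%. In WT Paneth-like cells Pla2g4c was at 1.45%, beside 0.909% for Apoa1, 0.699% for Fabp6, 0.553% for Sis and 0.668% for Rbp2. In WT tuft-like cells Pla2g4c was at 41.8% of its enterocyte-like level, beside 2.49% for Apoa1, 15.5% for Fabp6, 11.9% for Sis and 11.8% for Rbp2. Relative to the enterocyte-like level, Pla2g4c was thus above these 4 genes in each of these classes, on 14 UMIs in lymphocyte-like and 56 in Paneth-like cells. The lymphocyte-like values of Sis and Rbp2 rest on 1 and 3 UMIs. Pla2g12b, also highest in enterocyte-like cells, was above Pla2g4c in WT Paneth-like cells, at 2.64% on 10 UMIs. It was at 3.61% on 1 UMI in WT lymphocyte-like cells and at 17.8% in WT tuft-like cells. No doublet caller was used, and leaving out the 5% of cells with the most UMIs in each cluster gave a log2 ratio of -3.84 over the whole libraries.

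Pla2g4c also rose with a score of villus position in WT. Enterocyte-like cells were scored by known genes of the villus tip minus those of the villus bottom, leaving out landmarks that are among the genes of the genotype comparison, and were cut into 3 equal ranges within each library. A range of a score is not a cell type, and 382 of the WT and 180 of the Tipe0-/- cells lay within 0.1 of a cut. The score held 9 tip and 3 bottom genes. Reg3g, a bottom gene left out of it, did not fall in WT, at 48237, 48574 and 49275 CPM from low to high. In Tipe0-/- Reg3g was at 27273, 28015 and 24171 CPM. The ranges are therefore not read as positions on the villus. In WT Pla2g4c was at 364 CPM (342 to 387) in the low, 498 CPM (472 to 524) in the middle and 954 CPM (913 to 996) in the high range. In Tipe0-/- it was at 37.7 CPM (28.5 to 49.0), 49.3 CPM (37.8 to 63.2) and 29.3 CPM (19.6 to 42.02). The WT level rose from range to range beyond counting error, and the 3 Tipe0-/- intervals overlapped.

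Tip genes rose in both libraries by the way the score was made. Apoa4, an apolipoprotein, went from 1.78 CPM in the low to 384 CPM in the high range in WT and from 2.02 to 343 CPM in Tipe0-/-. Ada, adenosine deaminase, reached 224 CPM in the high range of WT and 467 CPM in that of Tipe0-/-. Pla2g12b rose with the score in both, from 43.4 CPM (36.1 to 51.8) to 69.9 CPM (59.3 to 81.9) in WT and from 33.0 CPM (24.4 to 43.7) to 84.8 CPM (67.6 to 105) in Tipe0-/-. Pla2g16 went the other way, from 118 CPM (106 to 132) to 85.5 CPM (73.7 to 98.6) in WT and from 68.7 CPM (56.1 to 83.5) to 38.3 CPM (27.1 to 52.6) in Tipe0-/-. Pla2g12b and Pla2g16 thus went in 1 direction each along the score in both libraries, whereas the order of Pla2g4c was seen beyond counting error in WT alone.

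**Figure D4:**
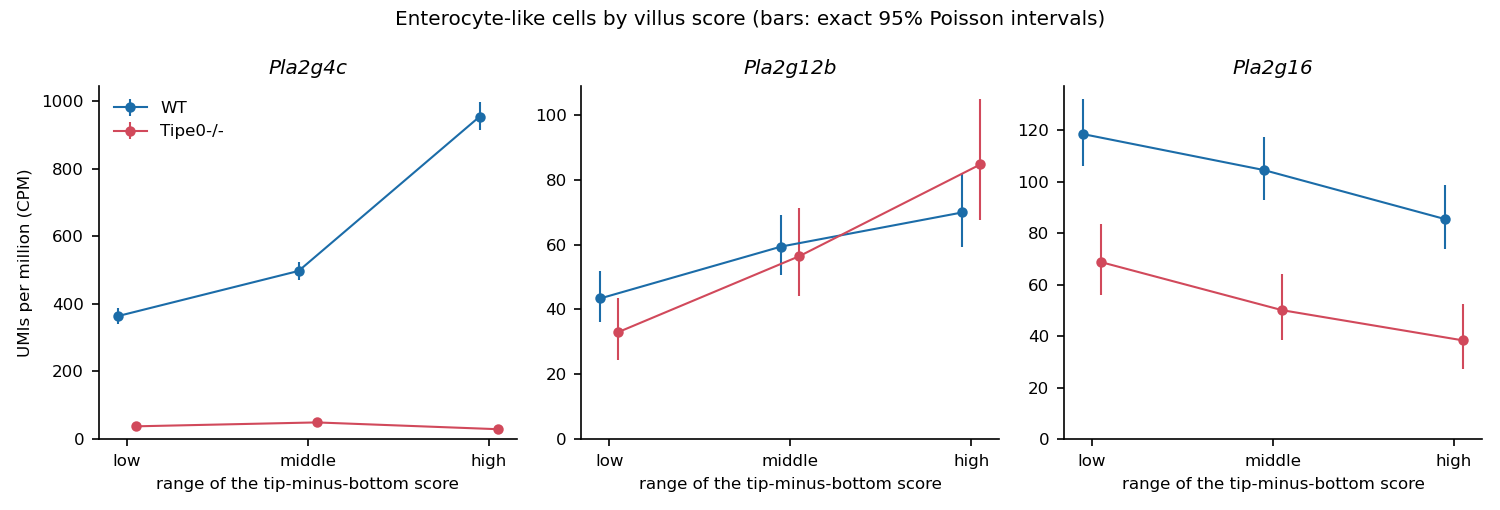
Levels in CPM (linear axes from 0) of Pla2g4c, Pla2g12b and Pla2g16 in the low, middle and high range of the tip-minus-bottom score among enterocyte-like cells, with WT in blue and Tipe0-/- in red; bars are exact 95% Poisson intervals. Pla2g4c climbs from 364 to 954 CPM in WT and stays between 29.3 and 49.3 CPM in Tipe0-/-, Pla2g12b climbs in both and Pla2g16 declines in both.

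Pla2g4a encodes the calcium-dependent cytosolic enzyme best known for releasing arachidonate. It had 782 UMIs in WT, a level of 20.5 CPM (19.1 to 22.0), and 527 in Tipe0-/-, a level of 22.1 CPM (20.2 to 24.0). The log2 ratio was 0.11 (-0.06 to 0.27), an interval that holds 0 and the median of all genes. Over clusters its level went weakly against that of Pla2g4c (r = -0.42 in WT and -0.57 in Tipe0-/-). Tuft-like cells were highest in both libraries (68.0 CPM, 57.3 to 80.2, in WT and 60.0 CPM, 46.2 to 76.6, in Tipe0-/-), with stem-like cells within their interval (58.2 and 59.1 CPM). Enterocyte-like cells were lowest, at 2.05 CPM (1.17 to 3.33) in WT and 1.88 CPM (0.75 to 3.86) in Tipe0-/-. The cytosolic pair thus differed most in enterocyte-like cells, while tuft-like cells had a high level of both in WT. In enteroendocrine-like cells Pla2g4a was at 51.0 CPM on 22 UMIs in WT and 19.98 CPM on 9 in Tipe0-/-, a log2 ratio of -1.31 (-2.65 to -0.18) under the minimum of 50 UMIs.

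Pla2g6 encodes a calcium-independent phospholipase A2 with roles in membrane upkeep. It was low in both libraries, at 5.95 CPM (5.20 to 6.78, 227 UMIs) in WT and 5.65 CPM (4.74 to 6.69, 135 UMIs) in Tipe0-/-. The log2 ratio was -0.07 (-0.39 to 0.24). Its highest WT class was tuft-like (13.4 CPM, 8.91 to 19.4), and its Paneth-like level was 2.69 CPM (1.60 to 4.26). Most classes lay within each other's intervals.

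Pla2g15 encodes the lysosomal phospholipase A2 and was close to the limit of detection. It had 46 UMIs in WT (1.21 CPM, 0.883 to 1.61) and 37 in Tipe0-/- (1.55 CPM, 1.09 to 2.13). The log2 ratio of 0.36 had an interval from -0.31 to 1.02, which leaves room for a difference of up to about 2-fold in one direction. No class held more than 14 of its UMIs in either library, so its distribution over classes was not detectable at this depth.

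Pla2g12a and Pla2g12b encode secreted proteins of one subgroup, of which the second lacks catalytic activity and is known for its part in lipoprotein secretion. Pla2g12a had 886 UMIs in WT (23.2 CPM, 21.7 to 24.8) and 525 in Tipe0-/- (22.0 CPM, 20.1 to 23.9), a log2 ratio of -0.08 (-0.24 to 0.08). Pla2g12b had 665 UMIs in WT (17.4 CPM, 16.1 to 18.8) and 376 in Tipe0-/- (15.7 CPM, 14.2 to 17.4), a log2 ratio of -0.15 (-0.33 to 0.04). Neither pair of levels differed beyond counting error over whole libraries, though both intervals lay below the median ratio of all genes, 0.15. In goblet-like cells the log2 ratio of Pla2g12a was -0.37 (-0.66 to -0.08), while in every other class its interval included equal levels.

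This pair was highest in unlike classes, though other classes held both, such as WT goblet-like cells with Pla2g12a at 27.9 CPM and Pla2g12b at 10.1 CPM. In WT Pla2g12a was at 52.6 CPM (44.1 to 62.4) in stem-like, 34.3 CPM (29.98 to 39.01) in Paneth-like and 3.08 CPM (1.97 to 4.58) in enterocyte-like cells. Pla2g12b was at 5.54 CPM (3.03 to 9.30), 1.497 CPM (0.718 to 2.75) and 56.6 CPM (51.4 to 62.1) in the same classes. Tipe0-/- gave the same arrangement, with Pla2g12a at 45.6 CPM in stem-like and 2.68 CPM in enterocyte-like cells, and Pla2g12b at 4.19 and 54.7 CPM. Enterocyte-like cells held 66.3% of the WT and 54.3% of the Tipe0-/- count of Pla2g12b. In enterocyte-like cells, where Pla2g4c and Pla2g12b are both high, the log2 ratio of Pla2g12b was -0.05 (-0.30 to 0.19) beside -3.87 for Pla2g4c.

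Pla2g16, a membrane-bound enzyme of the PLAAT group, was the most evenly spread member. It had 4152 UMIs in WT (109 CPM, 106 to 112) and 1794 in Tipe0-/- (75.1 CPM, 71.6 to 78.6). The log2 ratio was -0.54 (-0.62 to -0.46), and relative to the median of all genes -0.69, with 5.55% of genes lower. In WT it ran from 40.9 CPM (36.2 to 46.0) in Paneth-like to 143 CPM (127 to 160) in tuft-like and 141 CPM (133 to 150) in cycling-like cells. In Tipe0-/- it was 34.9 CPM (29.2 to 41.4) in Paneth-like, 84.4 CPM (67.9 to 104) in tuft-like and 90.0 CPM (81.8 to 98.8) in cycling-like cells.

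In 5 of 9 groups the interval of Pla2g16 lay below 0, with log2 ratios smaller in size than 1. The share of all genes with such an interval was not computed. Intervals narrow as counts rise, so the number of groups is a description only. Enterocyte-like cells had 104 CPM (97.2 to 112) in WT and 54.4 CPM (47.2 to 62.4) in Tipe0-/-, a log2 ratio of -0.94 (-1.17 to -0.71). It was -0.65 (-0.81 to -0.49) in cycling-like, -0.48 (-0.63 to -0.34) in goblet-like, -0.50 (-0.76 to -0.24) in stem-like and -0.75 (-1.11 to -0.41) in tuft-like cells. The interval held 0 in Paneth-like (-0.23, -0.54 to 0.08), enteroendocrine-like (-0.09, -0.70 to 0.51) and lymphocyte-like cells (-1.41, -4.81 to 0.26) and in cluster 10 (-0.42, -0.95 to 0.06). Within enterocytes, cluster 1 gave -1.17 (-1.59 to -0.79) and cluster 8 gave -1.21 (-1.84 to -0.67), both past 2-fold, and cluster 5 gave -0.67 (-1.002 to -0.35). Over the whole enterocyte-like class 1.52% of genes were past 2-fold lower, and the share was not computed for single clusters.

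Among 25 other genes of the phospholipase A2 families, 24 had a row in the matrix and 12 had at least 50 UMIs. None of the 12 was past 2-fold in either direction, where 2.43% of all genes were past 2-fold lower and 1.53% higher. A count of 0 among so few genes is near those shares, and nothing is read from it. Their median log2 ratio was -0.02 beside 0.15 for all genes. The lowest ratio was that of Pla2g10, a secreted enzyme of mucosal surfaces highest in goblet-like cells, at 24.8 CPM in WT and 16.9 CPM in Tipe0-/- (-0.55, -0.72 to -0.38). Prdx6, a peroxidase that also has phospholipase A2 activity, was the most abundant, at 218 CPM in WT and 188 CPM in Tipe0-/- (-0.21, -0.26 to -0.16). Pla2g5, a secreted enzyme, was higher in Tipe0-/-, at 16.2 CPM against 10.2 CPM (0.67, 0.46 to 0.87), and so was Pla2g3 at 2.51 against 1.70 CPM (0.56, 0.03 to 1.09). Of the genes under the minimum of 50 UMIs, only Pnpla3 had an interval that left out 0. It had 33 UMIs in WT and 3 in Tipe0-/- (-2.58, -5.13 to -1.11). Of the nearest relatives of Pla2g4c, Pla2g4b and Pla2g4e were counted 0 times in both libraries, and Pla2g4d and Pla2g4f once in all. Pla2g4c and Pla2g4a were thus the cytosolic members with counts to compare.

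Of 22 genes of eicosanoid synthesis 15 had at least 50 UMIs, and the median log2 ratio was 0.05. Of these, 2 were past 2-fold lower and none higher, where 2.43% and 1.53% of all genes were. The 2 were Ltc4s, leukotriene C4 synthase, at 9.49 CPM in WT and 3.56 CPM in Tipe0-/- (-1.41, -1.78 to -1.07), and Alox5ap, which presents arachidonate to 5-lipoxygenase, at 11.8 and 5.73 CPM (-1.04, -1.33 to -0.77). Both are markers of tuft cells, which made up 4.64% of WT and 2.54% of Tipe0-/- cells. Within tuft-like cells Ltc4s was at 130 CPM in WT and 51.6 CPM in Tipe0-/- (-1.33, -1.78 to -0.91), and Alox5ap at 186 and 102 CPM (-0.86, -1.18 to -0.55). Their part in the result over whole libraries was not tested beyond these values. Hpgd, which degrades prostaglandins, and Akr1b8 had the highest ratios of the list, at 0.54 (0.40 to 0.68) and 0.69 (0.43 to 0.96).

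For 3 genes of eicosanoid synthesis and 2 that handle lysophospholipid, all chosen after their values were seen, levels are given in enterocyte-like cells, where Pla2g4c was highest. Ptgs1, cyclooxygenase 1, had 14 UMIs there in WT and 0 in Tipe0-/-, Ptgs2, cyclooxygenase 2, had 1 and 0, and Alox5, 5-lipoxygenase, had 8 and 1. In tuft-like cells Ptgs1 was at 69.4 CPM in WT and 48.8 CPM in Tipe0-/-, and Alox5 at 76.6 and 51.6 CPM. In enterocyte-like cells Lpcat3, which reacylates lysophosphatidylcholine, was at 130 CPM in WT and 142 CPM in Tipe0-/- (0.13, -0.03 to 0.28), and Lypla1, a lysophospholipase, at 192 and 191 CPM (-0.01, -0.14 to 0.12).

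Of 25 genes of lysophospholipid reacylation and clearance 22 had at least 50 UMIs, and the median log2 ratio was 0.02. None was past 2-fold, where 2.43% of all genes were past 2-fold lower and 1.53% higher. Tmem189 (-0.81, -1.43 to -0.26) and Acsl4 (-0.54, -1.07 to -0.05) had the lowest ratios, and Plbd1 (0.68, 0.51 to 0.85) and Lyplal1 (0.60, 0.30 to 0.91) the highest. Of 25 receptors for lysophospholipids and eicosanoids 7 had at least 50 UMIs, with none past 2-fold and a median of 0.20. Ltb4r1 (-0.78, -1.77 to 0.07) and S1pr2 (-0.59, -1.41 to 0.15) were lowest, and Lpar6 (0.41, 0.15 to 0.66) and Ffar1 (0.37, -0.33 to 1.06) highest. Over whole libraries, no gene of these lists with at least 50 UMIs had a difference of the size seen for Pla2g4c. Pla2g4c ranked 5 from the lowest of all 11665 genes, so few genes of any kind did, and nothing is read from this. Genes under that minimum were not compared.

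Other lists did differ between the libraries, and their levels are given because they moved with Pla2g4c. Over all genes 2.43% were past 2-fold lower, and the median log2 ratio was 0.15. Of 11 genes of MHC class II presentation with at least 50 UMIs 7 were past 2-fold lower in Tipe0-/-, with a median log2 ratio of -1.27. These were H2-Aa, H2-Ab1, H2-Eb1, H2-DMb1, H2-DMb2, Ciita and Cd74, with ratios from -1.65 for H2-DMb2 to -1.26 for Ciita, and Cd74, the invariant chain, went from 1600 CPM in WT to 664 CPM in Tipe0-/-. Ctss (-0.18) and Ifi30 (0.07) had the highest ratios of that list. Of 30 interferon-induced genes 17 were past 2-fold lower, with a median of -1.11: Isg15, Iigp1, Usp18, Igtp, Irgm2, Ifit2, Gbp2, Ifit1, Psmb8, Bst2, Nlrc5, Oasl2, Ifit3, Tap1, Gbp7, Stat2 and Irf7. Isg15 had the lowest ratio, from 72.1 CPM in WT to 18.5 CPM in Tipe0-/- (-1.96), and Irf9 (-0.31) and Tapbp (-0.30) the highest. None of the 6 villus bottom genes and none of the 7 villus tip genes with enough counts was past 2-fold, with medians of -0.40 and 0.03. Reg3g (-0.90) and Lypd8 (-0.84) were lowest and Nlrp6 (0.11) and Ccl25 (0.07) highest among the bottom genes, and Apoa4 (-0.68) and Creb3l3 (-0.54) lowest and Egfr (0.43) and Ada (0.33) highest among the tip genes. Both lists of immune genes hold genes that the study had named on these libraries, so their direction is not independent evidence. Their relation to the level of Pla2g4c was not tested. Lymphocyte-like cells made up 2.73% of WT and 0.897% of Tipe0-/- cells, and their part in these ratios was not tested.

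The genes whose levels most resembled that of Pla2g4c were sought over 26 points, each a cluster in a library with at least 30 cells, by Pearson's r of log2(CPM + 10) among 9840 genes. Points of 1 library share depth and preparation, so r is a description. Ly6a, which encodes the surface protein Sca-1, was closest (r = 0.91; 0.87 over the 14 WT clusters and 0.84 over the 12 Tipe0-/- clusters), and was at 213 CPM in WT and 30.2 CPM in Tipe0-/-. Nfil3, a transcription factor, followed (r = 0.90), then Plet1, a surface protein of progenitor cells (r = 0.89), Fth1, ferritin heavy chain (r = 0.88), B3galt5 (r = 0.87), AA467197 (r = 0.86), Me1 (r = 0.86) and Duoxa2, a maturation factor of dual oxidase (r = 0.85). All 8 were lower in Tipe0-/-, by log2 ratios from -0.42 for Fth1 to -6.02 for Plet1. For Ly6a the study reported the other direction by RT-PCR, with higher levels in Tipe0-/- enterocytes and healthy ileum. It also reported more Sca-1 protein by flow cytometry and staining, but fewer fetal-like stem cells in its single-cell data. The reason for this difference was not tested. Since the points span both libraries, a gene lower in Tipe0-/- resembles Pla2g4c partly through that difference. The within-library values of Plet1 and B3galt5 were lower in Tipe0-/- clusters, at 0.56 and 0.52. Over the Tipe0-/- library these genes were at 0.67 and 1.17 CPM, under the 10 CPM added, so no weaker likeness is read from them.

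The same was done for the 4 other members with at least 500 UMIs, which leaves out Pla2g6 and Pla2g15. Pla2g12b was nearest to Apob (r = 0.97) and Mttp (r = 0.97), both of lipoprotein assembly, and to Slc9a2 (r = 0.96), a sodium-proton exchanger. Pla2g4a was nearest to Cnn3, Zfhx3 and Clic6 (each r = 0.94), and Pla2g12a to Slc7a5 (r = 0.94), Rfc1 (r = 0.93) and the stem cell gene Smoc2 (r = 0.92). Pla2g16 was nearest to Mcts2 (r = 0.90), Dpcd (r = 0.88) and Psmb9 (r = 0.88), a subunit of the immunoproteasome that was at 140 CPM in WT and 78.7 CPM in Tipe0-/-. Among the members themselves Pla2g4c went with Pla2g12b (r = 0.89 over WT and 0.75 over Tipe0-/- clusters) and against Pla2g12a (r = -0.86 and -0.76).

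Within WT enterocyte-like cells, those with a Pla2g4c UMI after thinning were compared with those without, over 3436 genes with at least 0.1 thinned UMIs per cell in either set; ratios are of mean UMIs per cell with 0.01 added to each mean. Carriers made up 287 of 428 cells in cluster 1, 140 of 293 in cluster 5 and 78 of 182 in cluster 8, so the sets differ in maturity. Mean UMIs per cell were higher in carriers for Hbb-bs (ratio 6.15), U90926 (4.60), S100g (3.93), Capn13 (3.28), Cd55 (3.23), Cda (2.98), Sprr2a3 (2.89) and Rbp2 (2.73), and Sprr2a3 reached 7.04 UMIs in carriers against 2.43 in the rest. They were lower for Lrg1 (ratio 0.218), Plet1 (0.369), Clca3b (0.443) and 1810065E05Rik (0.492). S100g binds calcium and Rbp2 binds retinol, and both are enterocyte genes. Hbb-bs is a haemoglobin gene of red blood cells, at 0.129 UMIs per carrier.

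The same comparison in Tipe0-/- rests on 28 carriers. There the ratio was 2.67 for U90926 and 1.72 for Sprr2a3, but 0.746 for S100g, 0.904 for Cd55 and 1.09 for Rbp2. Plet1, which resembled Pla2g4c over clusters, was lower in WT carriers than in the rest of the class. Carriers were pooled over clusters 1, 5 and 8, of which they made up unlike shares. No comparison was made within a cluster, so likeness from cell to cell was not tested. Of the other members, the ratio in WT carriers was 1.25 for Pla2g12b, 0.994 for Pla2g16, 0.909 for Pla2g4a, 0.742 for Pla2g6 and 0.619 for Pla2g12a, the last 3 on means under 0.1 UMIs per cell, and Pla2g15 had no thinned UMI in either set. Of 21 interferon-induced genes compared 16 were higher in WT carriers (median log2 ratio 0.23), of 8 MHC class II genes 7 (0.20), of 7 lysophospholipid genes 6 (0.17), of 5 tip genes 4 (0.58), of 6 eicosanoid synthesis genes 3 (0.15), of 5 other phospholipase A2 genes 1 (-0.22), of 6 bottom genes 0 (-0.23), and the 1 receptor gene compared was higher (0.84), where 1924 of all 3436 genes were higher (0.05). In Tipe0-/- carriers the medians of the same genes were 0.01 for interferon-induced, -0.15 for MHC class II and 0.31 for lysophospholipid genes. They were 0.23 for eicosanoid synthesis, 0.42 for other phospholipase A2 and -0.003 for bottom genes. Tip genes gave -3.84 and the receptor gene -3.40. With 28 carriers, a gene without a UMI in them takes its ratio from the added 0.01. No order of the lists is therefore read from these cells.

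The 6 genes compared on either side of Pla2g4c on chromosome 7, each with at least 50 UMIs, did not share its difference. Before it lie Lig1, DNA ligase 1, with a log2 ratio of 0.16 (0.09 to 0.24), 6330408A02Rik with 0.43 (-0.07 to 0.92) and Ube2m, an enzyme of neddylation, with -0.27 (-0.34 to -0.19). After it lie Sepw1 with 0.46 (0.40 to 0.51), Gltscr2 with 0.19 (0.12 to 0.27) and Napa with -0.06 (-0.17 to 0.05). Sepw1, the nearest of those after it, starts at position 15917208, whereas Pla2g4c ends at 13360672. The genes compared on that side are thus not adjacent to it. All 6 were within 2-fold, beside -3.81 for Pla2g4c.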

How the data were processed

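Epithelial cells of the ileum from WT and Tipe0-/- mice, 3 mice pooled per genotype, were sequenced as 1 library each (10x Chromium, 3' v2). The labels give EDTA, Collagenase and Dispase for isolation, whereas the study's methods name DNase I and Dispase. The deposited values are counts of UMIs per gene and cell, which the authors made with Cell Ranger by alignment to mm10. No normalized values were used. The matrices held no unnamed rows, and each of the 3402 WT and 2006 Tipe0-/- cells was kept.

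UMIs were summed per library, class or cluster and given as CPM with exact 95% Poisson intervals. The log2 ratio of Tipe0-/- over WT had 0.5 added to each sum and an exact binomial interval. With 1 library per genotype no test was run, and a gene was called past 2-fold at a log2 ratio of 1 or more in size with at least 50 UMIs. For shares of cells, every cell was first thinned to 3000 UMIs. Intervals cover counting error only. The ratios and thinning were tested on simulated data.

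Clusters came from Seurat 5.3.0 run in R 4.3.3 (14 principal components, resolution 0.8) on 346 variable genes, with the members, the listed genes and 117 genes of the study's genotype comparison kept out. A cluster was named for the class with the highest mean marker score if at least 3 of its markers were found in 5% of thinned cells and at 1.5 times the share elsewhere, and no other class had a larger share of its markers. This naming rule was settled after the clusters had been seen. No doublet caller was used. The villus score left out landmarks among the genes of the genotype comparison (Lypd8, Reg3b and Reg3g).

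The members, gene lists and markers were chosen with earlier results of these data known. Named genes besides the 7 members and Tnfaip8 are the 2 lowest and 2 highest log2 ratios of each list, genes past 2-fold, the 3 leading genes of a cluster, the 8 genes most like Pla2g4c and 3 for each other member with at least 500 UMIs, and the 8 highest and 4 lowest ratios between carriers and other cells. Other marker genes are named as controls of free RNA, and Ptgs1, Ptgs2, Alox5, Lpcat3 and Lypla1 were named after their values had been seen. Gene positions come from GENCODE M21 (GRCm38) and sequences before annotated starts from RefSeq, which matched 7 of the 7 members.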

Additional observations from a re-analysis of the deposited data

How the results depend on the processing

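The log2 ratio of Pla2g4c over whole libraries stayed between -4.42 and -3.64 over 11 alternatives and past 2-fold lower in each. It was -3.69 with the same makeup of cell classes in both libraries, -3.64 with the same makeup of clusters and -4.42 without the 10 richest cells of each library, which hold much of the Tipe0-/- count. In enterocyte-like cells it ran from -4.32 without cluster 5 to -3.64 over 5 alternatives. The share of cells with a Pla2g4c UMI was 42.9% in WT and 7.43% in Tipe0-/- with no thinning, and 14.3% and 0.748% when 2 UMIs were required. Genes past 2-fold lower numbered 133 with at least 200 UMIs and 649 with at least 10, against 284, and those past 2-fold higher 60 and 476, against 178; fewer or more genes entered. Scaling by the median ratio gave 376 lower and 104 higher. The log2 ratio of Pla2g16 was -0.69 under that scaling and -0.67 with each cell weighted alike, and that of Pla2g12b was -0.46 without cells over 10% mitochondrial UMIs; the cause was not tested. Pla2g4a and Pla2g15, whose intervals hold 0, changed sign under an alternative, with ranges of -0.05 to 0.11 and -0.05 to 0.76. Weighting by clusters and leaving out cluster 9, cluster 5, the cells with the most UMIs, shared barcodes or lymphocyte-like cells were chosen after seeing the data. No paired analysis was possible because there is 1 library per genotype, and for the same reason no replicate could be left out. Depth limits Pla2g15 and the lymphocyte-like class, and with 1 library per genotype the spread between mice is unknown.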
